A study of Mus musculus with 8 samples.

Results

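The core histone genes examined here were the 61 genes whose symbols begin Hist1h, Hist2h, Hist3h or Hist4h followed by 2a, 2b, 3 or 4, out of 21828 genes listed in every table. They were taken by symbol alone from 67 rows, with the rows of a shared symbol summed, and the linker H1 genes of the same loci were left out. Of the 61 genes, 47 belonged to the Hist1 cluster on chromosome 13, 10 to the Hist2 cluster on chromosome 3 and 3 to the Hist3 cluster on chromosome 11, and Hist4h4 stood alone on chromosome 6. By protein, 18 coded for H2A, 18 for H2B, 12 for H3 and 13 for H4, with 2 of the symbols marked as pseudogenes. None of the 67 rows carried a failed estimate in any library, although 5 rows, those of Hist1h2ap, Hist1h4n and Hist2h2aa2, were marked as low in data in each. Every member was above 0 in all 8 libraries, so no member was lost from the counts of folds.

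DNA in the nucleus is wrapped around nucleosomes, in which H3 and H4 form the central tetramer and H2A and H2B the flanking dimers. The clustered genes examined here supply most of these proteins while DNA is being copied, and most of their messenger RNAs end in a short stem-loop instead of a poly(A) tail. Cells that have stopped dividing replace histones from other genes, such as H3f3a and H3f3b, whose messages are polyadenylated, and some clustered genes can also yield polyadenylated messages. The retina passes from dividing progenitors to non-dividing neurons over the stages sampled. Because the RNA was selected on oligo-dT beads before sequencing, the levels below are those recovered in a poly(A) preparation and not the total histone message of the cells.

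The libraries came from retinas of ICR mice with no genetic change or treatment named in the labels. Unsorted retina was sampled at embryonic day 15 (E15) and embryonic day 18 (E18), and at postnatal days 2, 5 and 8 (P2, P5 and P8) dissociated retinas were sorted with an antibody to Cd73, a surface enzyme carried by rod precursors, into those carrying it (named Cd73PC) and the remainder without it (named Cd73NC). Retinas were pooled before each sort, and each of the 8 conditions had 1 library. With 1 library per condition no difference at a single age or between ages has a replicate error or a test, and each compares libraries. The 1 test made takes the 6 sorted libraries together, with age as a block. A fold is therefore counted once it reaches 1.5 on the scale of FPKM + 1, where FPKM is fragments mapped to a gene, scaled for the length of its model and for the mapped reads of its library, and each count is read beside the share of all genes that pass the same fold.

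The rod genes Nrl, Nr2e3, Crx and Sag were higher in Cd73PC at all 3 ages, 4 of 4 genes each time. Their median was 947 FPKM in Cd73PC against 20.6 in Cd73NC at P2, 1375 against 249 at P5 and 1279 against 190 at P8, so the fractions were closer in rod RNA at P5 than at P2, with median log2 ratios of 2.54 and 5.58. Read totals were not in the tables, and the steps between low values put the relative depth of the 8 libraries between 0.966 and 1.62 times that of E18. In bulk RNA, fewer cells of a type and less RNA per cell cannot be told apart, and this holds for each difference given here. Rescaling the libraries moved the median gene by up to 0.12 (upper quartile) or 0.23 (quantile) on the log2 scale between Cd73PC and Cd73NC.

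The stem-loop is shown first, since it is the feature that sets these messages apart in a poly(A) preparation. A stem of GGNNNT, a 4-base loop of TNTN and the closing stem ANNNCC, where N is any base, were searched as 1 run of 16 bases on the coding strand within 150 bases after the stop codon, in the mouse genome build NCBIM37. It was found in 56 of the 61 genes, starting 22 to 59 bases after the stop codon with a median of 32. Among 21949 genes with an annotated stop codon, 117 or 0.533% held it, and 60 of these had a symbol beginning Hist. The most common form stood in 38 rows, and 8 forms occurred in all. The following 7 are shown because each has a form of its own, in the 3′ untranslated region or just beyond the annotated model, with the stem-loop in capitals and 5 flanking bases on each side, 5′ to 3′ on the coding strand, as read from chr13:23843441-23843456 (plus strand), chr13:23839072-23839087 (plus), chr13:23627758-23627773 (plus), chr13:23673819-23673834 (plus), chr13:23852669-23852684 (minus), chr3:96024341-96024356 (minus) and chr3:96066862-96066877 (minus).
Hist1h2ab: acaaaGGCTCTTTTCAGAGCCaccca
Hist1h2bb: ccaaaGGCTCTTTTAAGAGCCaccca
Hist1h3g: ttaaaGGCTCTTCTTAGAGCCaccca
Hist1h4d: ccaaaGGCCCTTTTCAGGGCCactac
Hist1h4a: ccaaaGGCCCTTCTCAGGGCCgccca
Hist2h2ac: aaaaaGGCTCTTTTTAGAGCCaccaa
Hist2h4: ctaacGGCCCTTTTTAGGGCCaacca
The pattern was not found in the searched bases of Hist1h2an, Hist2h2be and Hist2h2bb, and the pseudogenes Hist3h2bb-ps and Hist2h3c2-ps had no annotated stop codon to search from. The search began at the end of the first coding exon. In Hist2h2bb that part held 229 bases, against 381 in Hist2h2be. The search may therefore not have reached the bases after its stop codon, and it cannot decide for this gene. The form printed for Hist1h2ab also stood in Hist3h2ba, Hist3h2a, Hist2h2aa1 and Hist2h3c1, so the members that were high in different libraries could not be told apart by this sequence alone.

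The gene models differed in how much of a message they could count. For 31 genes the model held the coding part alone, without the bases after the stop codon. By contrast, 13 genes had genomic spans that ended more than 100 bases past the stem-loop, introns counted. An AATAAA hexamer, the usual signal for adding a poly(A) tail, stood in the last 60 bases of the genomic spans of 7 genes, namely Hist1h2ae, Hist1h2bc, Hist1h2bp, Hist2h2be, Hist2h3c1, Hist3h2ba and Hist4h4. For Hist4h4 the span held 2879 bases and the exons of its model 312. These 7 genes did not share a direction. Between the fractions at P8, 2 of them were higher in Cd73PC by the fold, Hist1h2bc and Hist2h3c1, and 1 was lower, Hist3h2ba.

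Reads of 36 bases cannot be assigned with certainty within this family. Every 36-base window of each model was looked up across the 2716965481 bases of the genome, and the share of windows found at a single position had a median of 21.6% for the Hist1 rows, 34.5% for the Hist2 rows and 65.6% for the Hist3 rows. For 7 genes no window was placed once, and Hist4h4 was the one gene with 100%, over a model of 312 bases. Through shared windows the 61 genes fell into 5 sets, which were the 18 H2A genes, the 18 H2B genes, the 12 H3 genes, 12 of the H4 genes, and Hist4h4. All 13 Hist1 H2A genes and all 4 Hist2 H2A genes also shared windows with H2afx, a replacement H2A used at DNA breaks, up to 31.3% of a Hist1 model and 28.5% of a Hist2 model. Windows also found anywhere outside the 61 genes, H2afx included, ranged from 8.17% (Hist1h2aa) to 89.1% (Hist1h2ai) of the Hist1 H2A models. In the Hist2 H2A models they ranged from 23.5% (Hist2h2ab) to 86.0% (Hist2h2aa2). For 3 pairs of genes, Hist2h2aa1 with Hist2h2aa2, Hist1h2ao with Hist1h2ap and Hist1h4m with Hist1h4n, the models lie on the same bases, and the split of reads within a pair is uncertain. For these reasons the account below leads with sums over a cluster and a histone type, and gives the share of windows placed once for single genes that carry a result. Such sums do not settle reads shared between clusters or with genes outside the family. Windows also found in Hist2 made up 33.0% of Hist1h2ah, 25.5% of Hist1h3b and 0.867% of Hist1h2bf, and windows also found in Hist1 made up 21.7% of Hist2h2ac.

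**Figure D1:**
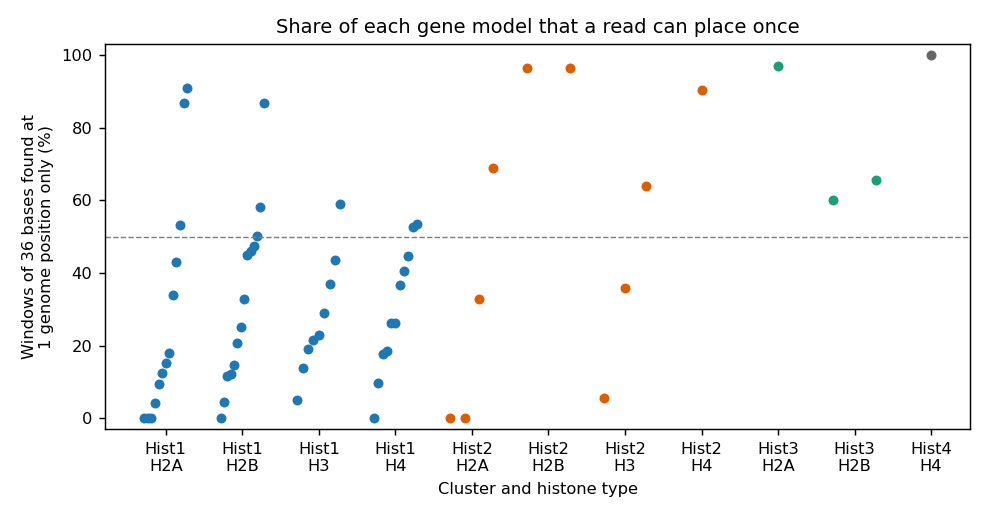
Share of 36-base windows of each gene model that occur at 1 position of the genome, in percent, with 1 point per gene grouped by cluster and histone type, and a dashed line at 50%. Most Hist1 points lie under the line, and 18 of the 61 genes reach it, among them all 3 Hist3 genes.

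Across the 8 libraries the members differed mainly by cluster. Summed over the 47 Hist1 genes, FPKM was 246 at E15, 358 at E18, 628 in P2 Cd73NC, 270 in P2 Cd73PC, 172 in P5 Cd73NC, 156 in P5 Cd73PC, 129 in P8 Cd73NC and 132 in P8 Cd73PC. The Hist1 sum was thus highest in the P2 Cd73NC library and lowest at P8, with the fractions close to each other at P5 and P8. Of the 47 Hist1 genes, 43 had their highest level in P2 Cd73NC, 3 in E18 and 1, Hist1h2bc, in P8 Cd73PC. The 10 Hist2 genes summed to 56.1, 86.8, 120, 173, 82.6, 202, 72.7 and 184 FPKM in the same order, so each Cd73PC library lay above every other library. The 3 Hist3 genes summed to 140, 160, 149, 111, 149, 70.9, 340 and 61.7 FPKM, with P8 Cd73NC above the other 7 libraries. As a share of the whole family, Hist1 made up 69.9% in P2 Cd73NC, Hist3 made up 62.8% in P8 Cd73NC and Hist2 made up 48.7% in P8 Cd73PC.

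**Figure D2:**
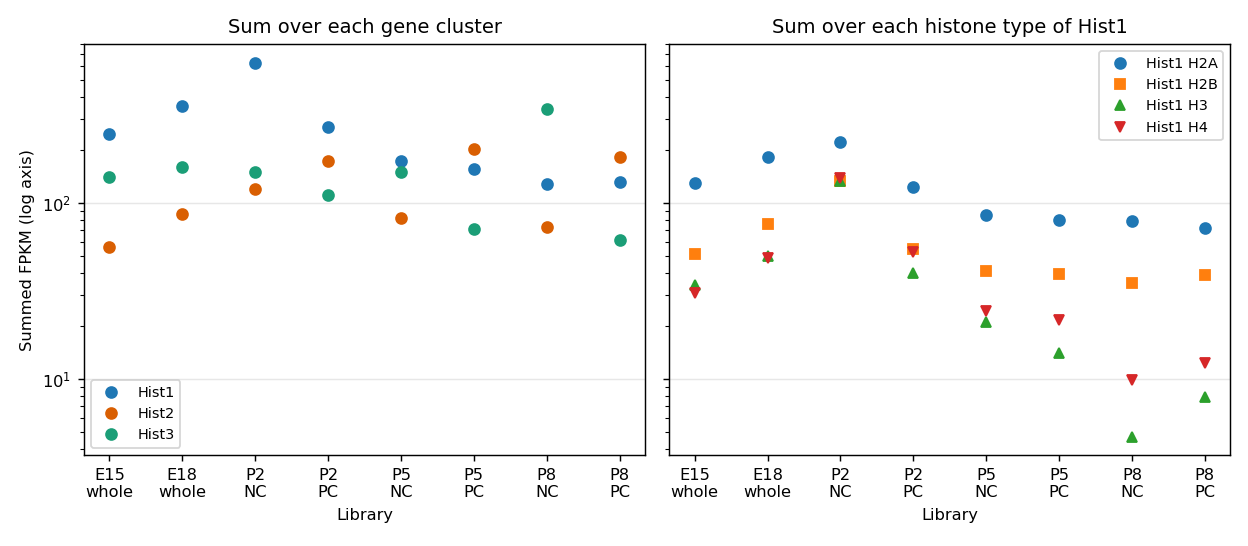
Summed FPKM on a log axis in each of the 8 libraries, for the Hist1, Hist2 and Hist3 clusters on the left and for the 4 histone types of Hist1 on the right, with 1 point per library and no error, since each condition has 1 library. Hist1 peaks at 628 in P2 Cd73NC, Hist2 is highest in the 3 Cd73PC libraries, and Hist3 stands at 340 in P8 Cd73NC.

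Within Hist1 the 4 histone types did not keep a fixed ratio. The 9 H3 genes summed to 34.4, 50.2, 133, 39.9, 21.2, 14.0, 4.70 and 7.91 FPKM from E15 to P8 Cd73PC, and the 11 H4 genes to 30.8, 49.0, 139, 53.0, 24.3, 21.5, 9.89 and 12.3 FPKM. The 14 H2B genes summed to 51.5, 76.0, 134, 54.8, 41.2, 39.6, 35 and 39.1 FPKM, and the 13 H2A genes to 129, 183, 222, 123, 85.7, 80.5, 79.1 and 72.3 FPKM. In P2 Cd73NC the H2B, H3 and H4 sums lay within 133 to 139 FPKM of each other, whereas in P8 Cd73NC they ranged from 4.70 for H3 to 35 for H2B. As a percentage of the P2 Cd73NC sum, P8 Cd73NC kept 3.55% of H3, 7.13% of H4, 26.1% of H2B and 35.6% of H2A. The median of 22 S phase genes, which encode replication factors such as Pcna and the Mcm helicase subunits and the nucleotide enzymes, stood at 6.44% in the same library, nearer to H3 and H4 than to H2A and H2B. H2afx, which shares windows with the H2A genes, stood at 18.6% in P8 Cd73NC and 30.9% in P8 Cd73PC, and its part in the H2A sums was not tested.

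The 7 Hist1 genes among the 12 members with the highest mean level were all H2A genes. Hist1h2ai had 13.4, 19.1, 24.8, 13.1, 9.11, 8.59, 8.41 and 7.38 FPKM from E15 to P8 Cd73PC. Hist1h2ah had 13.7, 19.4, 23.2, 12.7, 8.70, 8.58, 8.46 and 7.6 FPKM, and Hist1h2ad 13.5, 18.8, 22.8, 12.3, 8.70, 8.31, 8.55 and 7.41 FPKM. These 3 genes had nearly equal levels in every library, and with 0 to 9.5% of their windows placed once they are not separate measurements. Hist1h2an had 12.5, 18.6, 21.8, 12.9, 8.22, 6.89, 7.50 and 6.18 FPKM, and Hist1h2af 12, 16.5, 20.05, 10.6, 7.17, 7.08, 5.42 and 6.40 FPKM. Hist1h2ag had 11.4, 15.1, 21.2, 10.02, 6.81, 5.96, 5.88 and 5.19 FPKM. All 6 were highest in P2 Cd73NC and lowest at P8. Hist1h2ap with its overlapping partner Hist1h2ao summed to 26.0, 35.6, 42.5, 24.4, 17.0, 16.8, 16.7 and 14.6 FPKM, the same order again.

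**Figure D3:**
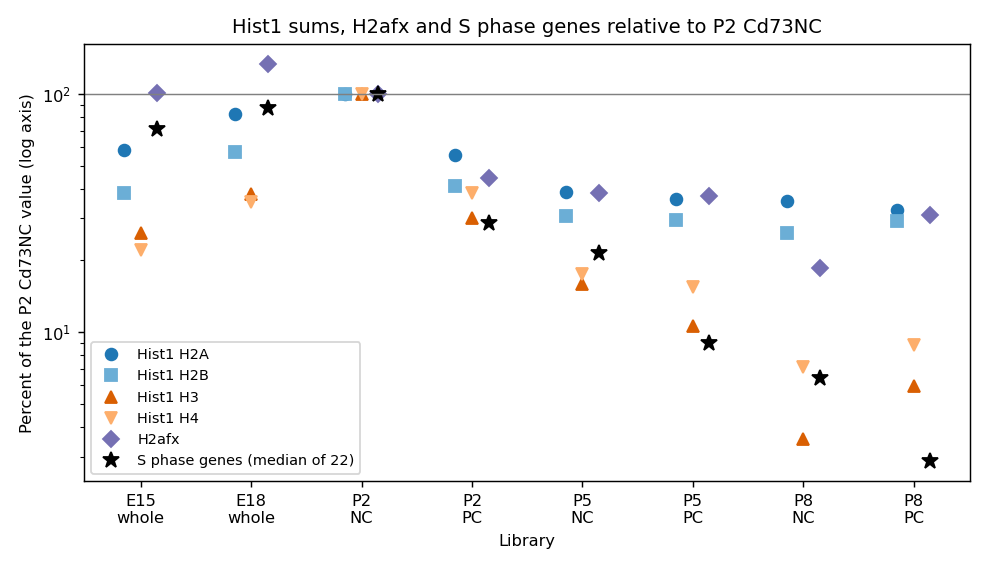
Level in each library as a percentage of the P2 Cd73NC level, on a log axis, for the summed FPKM of the 4 Hist1 types, for H2afx and for the median of 22 S phase genes, with points shifted sideways where they would overlap. Hist1 H3 and H4 reach 3.55% and 7.13% in P8 Cd73NC, while Hist1 H2A stays at 35.6%.

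From E15 to E18 most members stayed within the fold. In all, 13 of 61 genes were higher at E18 and 0 were lower, where 4.61% of all genes were higher and 2.09% lower, or 7.6% and 3.47% of those with at least 1 FPKM in either library. The median log2 ratio over the 61 genes was 0.44, against 0.00 over all genes. Those past the fold were 9 Hist1 and 4 Hist2 genes, among them Hist1h4d, an H4 gene with 2.65 FPKM at E15 and 6.75 at E18, and Hist2h4, another H4 gene, with 0.702 and 2.71 FPKM. Of the 13, Hist2h2aa2, Hist1h4m and Hist1h2ao belong to the overlapping pairs, whose sums had log2 ratios of 0.60, 0.99 and 0.44, so that the last pair as a whole did not reach the fold.

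Between E18 and P2 Cd73NC most H2B, H3 and H4 genes were higher and most H2A genes were not. Of the 61 genes 37 were at least 1.5-fold higher in P2 Cd73NC and 1, Hist1h4m, was lower, against 3.2% and 8.2% of all genes, or 5.47% and 13.3% of those with at least 1 FPKM in either library. Hist1h4m lies on the bases of Hist1h4n, and the pair summed to 12 FPKM at E18 and 38.8 in P2 Cd73NC, the direction seen in most other Hist1 H4 genes. The 37 included 9 of 9 Hist1 H3 genes and 9 of 11 Hist1 H4 genes, with median log2 ratios of 1.25 and 1.31. They also included 11 of 14 Hist1 H2B genes, with a median of 0.68, but 1 of 13 Hist1 H2A genes, with a median of 0.25. The summed ratio was 2.64 for Hist1 H3, 2.84 for Hist1 H4, 1.76 for Hist1 H2B and 1.21 for Hist1 H2A. Over the same pair of libraries 0 of the 22 S phase genes passed the fold in either direction, with a median log2 ratio of 0.14. Of 12 genes for histone message 3′ end processing, 0 were higher and 1 was lower. Slbp, the protein that binds the stem-loop, had 57.0 FPKM at E18 and 69.4 in P2 Cd73NC, a log2 ratio of 0.28. Rmrp and Rpph1, the RNAs of the RNase MRP and RNase P enzymes, which are made without a poly(A) tail and were looked at after the histone values were known, had 13.3 and 5.59 FPKM at E18, 39.3 and 7.35 in P2 Cd73NC, and 57.7 and 17.3 in P5 Cd73NC. Between the fractions they were lower in Cd73PC at P2, at 18.0 and 3.46 FPKM, and higher at P8, at 36.6 and 31.7 against 8.80 and 4.06 FPKM in Cd73NC, and the part of tail-less RNA carried into a library was not tested. The 2 libraries also differ in dissociation and sorting, which cannot be told apart from age.

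Between P2 and P5 in Cd73NC nearly the whole Hist1 cluster was lower. Here 50 of 61 genes were at least 1.5-fold lower at P5 and 0 were higher, against 9.52% and 7.93% of all genes, or 16.3% and 13.1% of those with at least 1 FPKM in either library. The 50 comprised 46 of 47 Hist1 genes and 4 of 10 Hist2 genes, of which Hist2h2aa2 summed with Hist2h2aa1 did not reach the fold, at -0.33. The 4 rod genes summed to 151 FPKM in P2 Cd73NC and 1136 in P5 Cd73NC, all 4 being higher at P5, and their part in the histone difference was not tested. The summed Hist1 ratio was a 6.26-fold lower level for H3, 5.71-fold for H4, 3.25-fold for H2B and 2.59-fold for H2A. Hist1h3f, the Hist1 H3 gene with the most windows placed once, had 3.98 FPKM in P2 Cd73NC, 0.632 in P5 Cd73NC and 0.270 in P8 Cd73NC. Hist1h4h, an H4 gene with over 50% of its windows placed once, had 8.77, 2.09 and 0.427 FPKM in these 3 libraries. In each step 22 and then 18 of the 22 S phase genes were also lower past the fold. This comparison and the last share the P2 Cd73NC library. Among the 18 members with at least 50% of windows placed once, 10 were lower at P5 and 0 higher.

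From P5 to P8 in Cd73NC the types separated. In all, 19 genes were lower and 3 higher, where 7.78% and 8.47% of all genes were, or 13.2% and 14.1% of those with at least 1 FPKM in either library. The 19 included 8 of 9 Hist1 H3 genes and 8 of 11 Hist1 H4 genes, but 1 of 13 Hist1 H2A genes and 0 of 14 Hist1 H2B genes. The 1 H2A gene was Hist1h2ao, whose sum with Hist1h2ap had a log2 ratio of -0.02. The 3 higher genes were the Hist3 genes, described below.

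In Cd73PC the same genes were followed from P2. At P5, 27 of 61 were lower than at P2 and 0 higher, against 8.57% and 3.36% of all genes, or 15.3% and 5.92% of those with at least 1 FPKM in either library, and 24 of the 27 were Hist1 genes. Of the 24, Hist1h2ao summed with Hist1h2ap had a log2 ratio of -0.51 and did not reach the fold. At P8, 8 were lower than at P5 and 0 higher, against 4.78% and 3.31% of all genes, or 8.54% and 5.94% of those with at least 1 FPKM in either library. Of those 8, 2 were Hist1 H3 genes and 5 were Hist1 H4 genes. From E18 to P2 Cd73PC, 10 genes were higher and 12 lower, against 8.78% and 18.3% of all genes, or 14.7% and 30.2% of those with at least 1 FPKM in either library, and the 10 included 7 of the 10 Hist2 genes. The 12 included Hist2h2aa2, whose sum with Hist2h2aa1 was higher, at a log2 ratio of 1.04. Hist1h4m was among the 12 and Hist1h4n among the 10, and their sum, at 0.20, did not reach the fold.

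**Figure D4:**
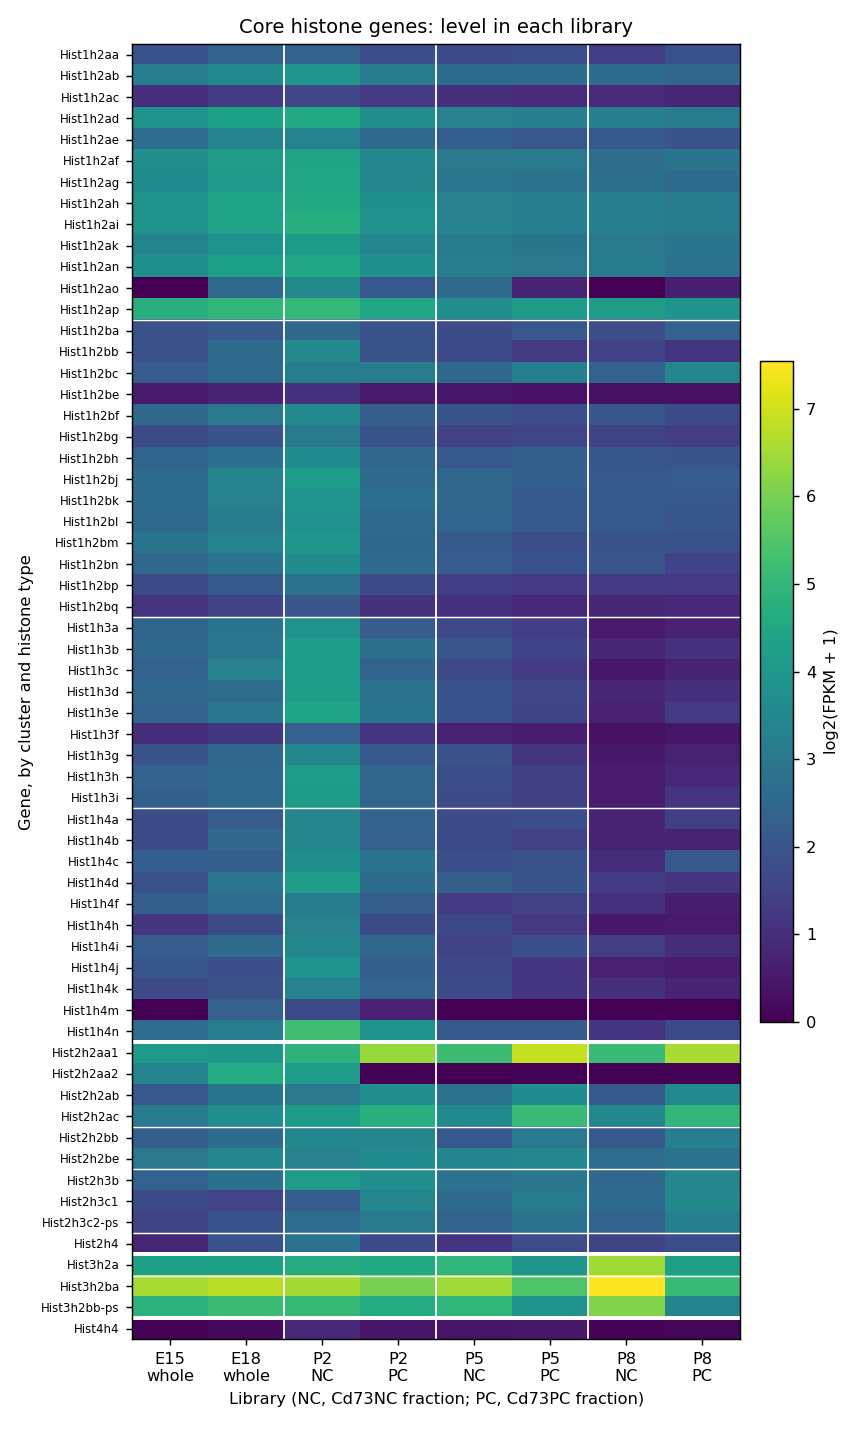
Heat map of log2(FPKM + 1) for the 61 genes (rows, ordered by cluster and histone type, with thick white lines between clusters) in the 8 libraries (columns), brighter being higher. Of the 47 Hist1 rows 43 are brightest in P2 Cd73NC, 3 of the 4 Hist2 H2A rows are brightest in a Cd73PC column, and the Hist3 rows in P8 Cd73NC, where Hist3h2ba reaches 185 FPKM.

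The fractions were next compared at each age, which is the contrast the sort was made for. At P2, 45 of 61 genes were at least 1.5-fold lower in Cd73PC than in Cd73NC and 4 were higher, against 14.4% and 8.56% of all genes, or 25% and 14.5% of those with at least 1 FPKM in either library. The median log2 ratio over the 61 genes was -0.97, against 0.00 over all genes. This comparison uses the same P2 Cd73NC library as the steps from E18 and to P5 given above. The Hist1 sum was 358 FPKM at E18, 628 in P2 Cd73NC and 270 in P2 Cd73PC. Among Hist1 genes 43 of 47 were lower and 0 higher, and the summed level was 3.32-fold lower for H3, 2.62-fold for H4, 2.45-fold for H2B and 1.81-fold for H2A. Hist1h2bb, an H2B gene with 50.1% of windows placed once, had 10.8 FPKM in Cd73NC and 2.82 in Cd73PC, a log2 ratio of -1.63. Of the 9 Hist1 genes with at least 50% of windows placed once, 7 were lower and 0 higher. All 22 S phase genes and all 4 markers of cycling progenitors (Mki67, Top2a, Ccnd1 and Hes1) were lower in the same comparison, the progenitor markers summing to 1320 FPKM in Cd73NC and 336 in Cd73PC, and their part in the histone difference was not tested. The 4 higher genes were the Hist2 genes Hist2h2aa1, Hist2h3c1, Hist2h2ab and Hist2h2ac, and the 2 lower genes outside Hist1 were Hist2h4 and Hist2h2aa2. Nearest to the fold were Hist2h2ac at 0.65 inside and Hist2h2be at 0.36 outside on the higher side, and Hist1h2aa at -0.59 inside and Hist1h2be at -0.57 outside on the lower side.

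At P5 most Hist1 genes lay within the fold between the fractions. The rod genes had a median log2 ratio of 2.54 at P5 and 3.68 at P8, and the part of this separation in the histone ratios was not tested. In all, 6 of 61 genes were higher in Cd73PC and 6 lower, against 7.02% and 15.5% of all genes, or 12.3% and 27% of those with at least 1 FPKM in either library. Of 47 Hist1 genes 43 did not reach the fold, and the summed Hist1 log2 ratio of -0.15 turned to 0.28 under quantile scaling. The 6 higher genes were 5 Hist2 genes and Hist1h2bc. The 6 lower genes were the 3 Hist3 genes with Hist1h2ao, Hist1h3g and Hist1h4k. Hist1h2ao lies on the bases of Hist1h2ap, and the 2 summed gave 17.0 FPKM in Cd73NC and 16.8 in Cd73PC, so that its ratio of -1.85 was not there in the sum of the pair. The 22 S phase genes still differed, 17 of them being lower in Cd73PC.

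At P8, 12 of 61 genes were higher in Cd73PC and 3 lower, against 7.54% and 18.6% of all genes, or 13% and 31.3% of those with at least 1 FPKM in either library. The 12 were 7 Hist2 genes and 5 Hist1 genes, and the 3 were the Hist3 genes. The 5 Hist1 genes were Hist1h2bc, Hist1h4c, Hist1h4a, Hist1h2ao and Hist1h3e, of which Hist1h3e was nearest to the fold at 0.59, and Hist1h2ao summed with Hist1h2ap had a log2 ratio of -0.18. The Hist1 sums were 129 FPKM in Cd73NC and 132 in Cd73PC, a log2 ratio of 0.03 that became 0.55 under quantile scaling, under which 23 members in place of 12 were higher. The H3 part of Hist1 was 4.70 FPKM in Cd73NC and 7.91 in Cd73PC, a 1.68-fold higher level at a low sum, and 13 of the 22 S phase genes were lower in Cd73PC at this age.

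**Figure D5:**
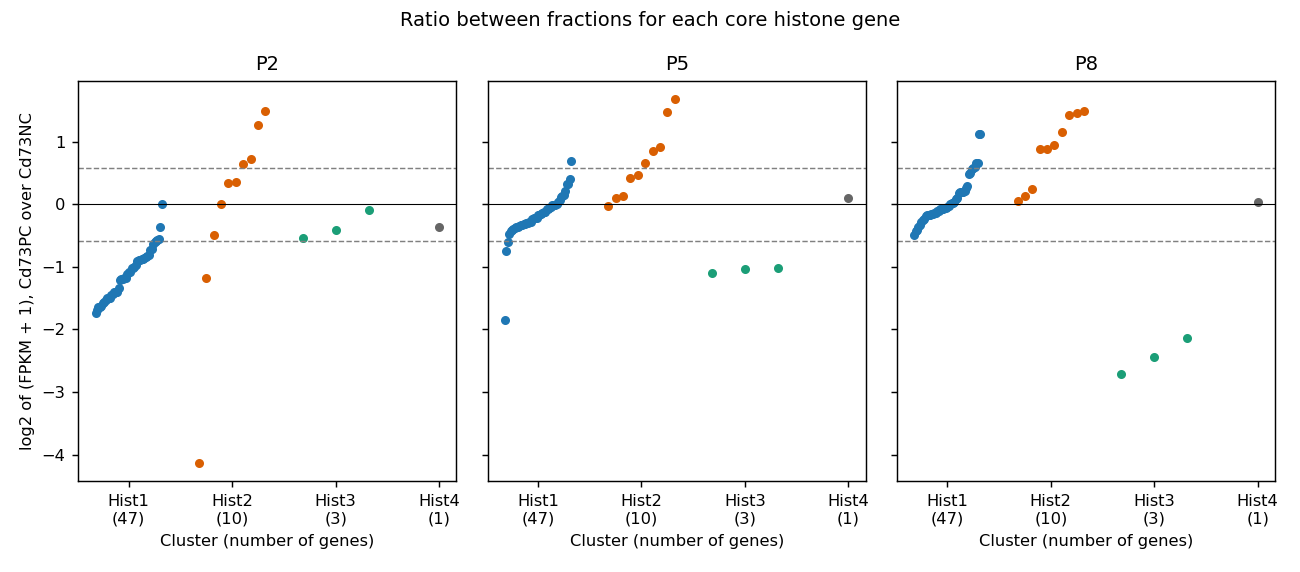
Log2 ratio of FPKM + 1, Cd73PC over Cd73NC, for each of the 61 genes at P2, P5 and P8, with 1 point per gene grouped by cluster and dashed lines at 1.5-fold in either direction. At P2 no Hist1 point lies above the upper line and 43 lie below the lower line, at P8 the 3 Hist3 points lie at or below -2.13, and the lowest Hist2 point at P2 is Hist2h2aa2, whose reads are shared with Hist2h2aa1.

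Over the 3 ages together, 4 members were higher in Cd73PC and 1 was lower, by limma on log2 of FPKM + 1 with age as a block and an adjusted p under the limit of 0.05 over 13057 genes, of which 8.9% were called higher and 19.2% lower. The fit has 2 residual degrees of freedom and counts any change of the difference with age as error. It held 60 of the 61 members, Hist4h4 being under 1 FPKM in each sorted library, and was added with the values known. The 4 were Hist2h2aa1 (mean log2 difference 1.54, SE 0.13, adjusted p = 0.00298), Hist2h2ac (1.21, SE 0.21, adjusted p = 0.0134), Hist2h2ab (1.002, SE 0.19, adjusted p = 0.0182) and Hist2h3c1 (0.87, SE 0.20, adjusted p = 0.0302). Each had a log2 ratio above 0 at 3 of 3 ages, although Hist2h3c1, at 0.47, did not reach the fold at P5. The 1 lower member was Hist3h2ba (-1.33, SE 0.37, adjusted p = 0.0477). The value of Hist2h2aa1 depends on how its reads were split from Hist2h2aa2. Hist2h2aa1, Hist2h2ac and Hist2h2ab share windows within Hist2 and are not fully separate measurements. None of the 47 Hist1 genes was called by limma, and 3 of them were lower and 0 higher at an unadjusted p under 0.05.

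Of the 10 Hist2 genes 4, 5 and 7 were higher in Cd73PC at P2, P5 and P8. Hist2h2ac, an H2A gene with 33.0% of windows placed once, had 7.51 FPKM at E15, 12 at E18, 16.1 and 25.9 in P2 Cd73NC and Cd73PC, 11.2 and 33.0 at P5, and 10.4 and 31.0 at P8. Its Cd73PC level was above the Cd73NC level of the same age, with log2 ratios of 0.65, 1.47 and 1.49. Hist2h2ab, its neighbour with 69.0% of windows placed once, had 3.13, 6.67, 6.94, 12.1, 5.99, 11.7, 3.40 and 10.8 FPKM in the same order of libraries. The 3 Cd73PC libraries of Hist2h2ab, at 10.8 to 12.1 FPKM, lay above the other 5. Hist2h2aa1 and Hist2h2aa2 share all their bases, and the pair summed to 25.5, 39.1, 45.2, 81.6, 35.7, 117, 34.1 and 95.6 FPKM. The pair was higher in Cd73PC at all 3 ages, with log2 ratios of 0.84, 1.68 and 1.46, although Hist2h2aa2 alone was listed at -4.14 at P2, with 16.7 FPKM in Cd73NC and 0.00743 in Cd73PC.

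Hist2h2aa1, Hist2h2ab and Hist2h2ac were the 3 members at least 1.5-fold higher in Cd73PC at P2, P5 and P8, and no member was lower at all 3 ages. Windows also found in another Hist2 row made up 61.7% of Hist2h2ac and 31.0% of Hist2h2ab. No window of Hist2h2aa1 was placed once, so these 3 genes are not fully separate measurements. Hist2h3c1, an H3 gene with 63.9% of windows placed once, had 2.40 FPKM at E15, 2.00 at E18, 3.57 and 9.97 in P2 Cd73NC and Cd73PC, 5.26 and 7.64 at P5, and 5.26 and 10.5 at P8. It passed the fold at P2 and P8, and its P5 log2 ratio was 0.47. Hist2h2bb, an H2B gene with 96.5% of windows placed once, had 3.92 FPKM at E15, 5.40 at E18 and 10.3 in both fractions at P2. In Cd73NC and Cd73PC it then had 3.25 and 7.04 FPKM at P5, followed by 3.23 and 8.45 FPKM at P8. Its difference was thus seen at P5 and P8, with log2 ratios of 0.92 and 1.16. Hist2h2be, which lies next to Hist2h2ac and codes for H2B, had 5.44 to 11.4 FPKM over the 8 libraries and did not pass the fold between fractions at any age. Among the 5 Hist2 genes with at least 50% of windows placed once, 2 were higher and 1 lower in Cd73PC at P2, 3 were higher at P5 and 3 at P8.

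One Hist1 gene was also higher in Cd73PC at P5 and P8. Hist1h2bc, an H2B gene with 47.4% of windows placed once, had 3.53 FPKM at E15, 4.94 at E18, 7.97 and 8.01 in P2 Cd73NC and Cd73PC, 4.86 and 8.49 at P5, and 4.10 and 10.1 at P8. Its fractions were level at P2 and apart at P5 and P8, with log2 ratios of 0.70 and 1.12. Its genomic span ends 7818 bases past the stem-loop, introns counted, and holds the AATAAA hexamer near its end.

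The Hist3 genes had the opposite order. Hist3h2ba was an H2B gene and the member with the highest mean of 88.2 FPKM. Of its windows 65.6% were placed once and 29.4% were also found in another Hist3 row. Hist3h2ba had 93.4 FPKM at E15, 107 at E18, 91.9 and 63.3 in P2 Cd73NC and Cd73PC, 88.3 and 42.9 at P5, and 185 and 33.2 at P8. The P8 Cd73NC library lay above the other 7, and Cd73PC lay below Cd73NC at each age, with log2 ratios of -0.53, -1.03 and -2.45. Hist3h2a, the H2A gene beside it with 97% of windows placed once, had 19.0, 18.6, 24.7, 23.1, 30.5, 14.4, 86.8 and 19.0 FPKM in the same order. It differed by less than the fold at P2 and had log2 ratios of -1.03 at P5 and -2.13 at P8. Hist3h2bb-ps ran from 9.55 FPKM in P8 Cd73PC to 68.3 in P8 Cd73NC and shared 40% of its windows with another Hist3 row. Hist3h2ba and Hist3h2bb-ps are thus not fully separate measurements. From P5 to P8 all 3 Hist3 genes were higher in Cd73NC, by log2 ratios of 1.06 to 1.48, and none passed the fold in Cd73PC.

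Marker lists of other cells are given for the same libraries. The bipolar markers Vsx1, Grm6, Trpm1 and Cabp5 summed to 25.5 FPKM in P5 Cd73NC, 571 in P8 Cd73NC and 62.7 in P8 Cd73PC, and 4 of 4 were lower in Cd73PC at P8. The Muller glia markers Rlbp1, Glul and Slc1a3 summed to 659 FPKM in P5 Cd73NC, 482 in P8 Cd73NC and 115 in P8 Cd73PC, and 3 of 3 were lower in Cd73PC. The erythroid genes Hbb-b1, Hba-a1 and Alas2 summed to 1377 FPKM in P5 Cd73NC, 5170 in P8 Cd73NC and 2075 in P8 Cd73PC, and 2 of 3 were lower in Cd73PC at P8. The microglia genes Csf1r, C1qa and Aif1 summed to 25.7 FPKM in P5 Cd73NC, 75.8 in P8 Cd73NC and 60.1 in P8 Cd73PC, and 3 of 3 were higher at P8 than at P5 in Cd73NC. No marker of these 4 lists was at 0 in P8 Cd73NC, and the part of these cells in the Hist3 levels was not tested.

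Promoters are shown for 1 gene of each of the 3 patterns. They span 250 bases before and 50 after the start in RefSeq annotation of build GRCm38.p6, were matched by symbol for 55 of the 61 members, and were searched on both strands for a TATA box spelled TATAAA, for a box of the letters CCAAT, and for an octamer bound by POU factors, ATGCAAAT, with matches in capitals. The genes are Hist1h2ab (chr13:23750838-23751137, plus strand), Hist2h2ac (chr3:96220831-96221130, minus strand) and Hist3h2ba (chr11:58948661-58948960, plus strand).
Hist1h2ab: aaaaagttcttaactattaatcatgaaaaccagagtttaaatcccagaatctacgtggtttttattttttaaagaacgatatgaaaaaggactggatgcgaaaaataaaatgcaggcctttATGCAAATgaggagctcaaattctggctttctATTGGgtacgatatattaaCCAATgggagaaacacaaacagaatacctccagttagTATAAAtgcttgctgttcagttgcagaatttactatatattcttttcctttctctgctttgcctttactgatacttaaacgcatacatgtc
Hist2h2ac: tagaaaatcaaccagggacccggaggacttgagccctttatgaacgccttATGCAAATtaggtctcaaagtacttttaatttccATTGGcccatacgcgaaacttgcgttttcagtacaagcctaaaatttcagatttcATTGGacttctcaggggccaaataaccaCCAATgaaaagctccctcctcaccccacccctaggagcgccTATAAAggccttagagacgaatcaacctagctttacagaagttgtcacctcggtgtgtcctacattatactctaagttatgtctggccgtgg
Hist3h2ba: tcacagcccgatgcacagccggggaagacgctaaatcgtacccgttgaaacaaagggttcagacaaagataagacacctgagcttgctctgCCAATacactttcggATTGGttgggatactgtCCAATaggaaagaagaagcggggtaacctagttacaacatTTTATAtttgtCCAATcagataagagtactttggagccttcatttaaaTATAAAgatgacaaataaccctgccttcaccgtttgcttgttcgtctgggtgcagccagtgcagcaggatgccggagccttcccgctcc
All 3 hold TATAAA and CCAAT, and the octamer stands in the first 2 and not in the window of Hist3h2ba. Over the 56 member promoters TATAAA stood in 55.4%, CCAAT in 83.9% and the octamer in 25.0%, against 13.6%, 37.4% and 1.74% of 32851 promoters of the same length. The motifs differed between histone types, in that CCAAT stood in 100% of the H2A, H2B and H3 promoters and 25% of the H4 promoters, and the octamer in 7 of 18 H2A and 7 of 16 H2B promoters and in 0 of the H3 and H4 promoters. A match is a description of the sequence and not evidence of a bound factor.

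The machinery that makes and removes these messages was followed in lists set beside the members. Slbp had 44.3, 57.0, 69.4, 34.8, 19.4, 16.5, 16.3 and 11.7 FPKM from E15 to P8 Cd73PC. Like the Hist1 sum it was highest in P2 Cd73NC, and it was lower in P2 Cd73PC by a log2 ratio of -0.98. Of the 12 genes of the 3′ end processing list, 3 were lower and 0 higher in Cd73PC at P2, 1 was lower and 1 higher at P5, and 0 were lower and 1 higher at P8. Of the 4 genes for decay of histone messages, Eri1, Upf1, Lsm1 and Exosc10, none passed the fold in either direction at P2 or P8 and 1 was lower at P5. Of all genes, 14.4%, 15.5% and 18.6% were lower in Cd73PC at P2, P5 and P8, and 8.56%, 7.02% and 7.54% higher. The same shares stand beside the counts between fractions of the lists that follow.

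Linker H1 genes were counted along the Cd73NC libraries and between the fractions. Of the 8, 5 were higher and 0 lower in P2 Cd73NC than at E18, 4 were lower and 1 higher from P2 to P5, and 7 were lower and 0 higher from P5 to P8. Of all genes, 3.2%, 7.93% and 8.47% were higher in these steps, and 8.2%, 9.52% and 7.78% lower. Hist1h1c, a linker H1 gene of the Hist1 cluster, had 7.46, 14.6, 35.3, 192, 79.0, 182, 21.7 and 180 FPKM from E15 to P8 Cd73PC. Its 3 Cd73PC libraries lay at 180 to 192 FPKM, above the other 5, as in the Hist2 sum. Of the 8 linker genes 3 were lower and 1 higher in Cd73PC at P2. The linker counts were 2 lower and 2 higher at P5, then 1 lower and 3 higher at P8. H1f0 and H1fx, linker genes outside the clusters, were highest in P2 Cd73NC at 453 and 300.0 FPKM and lowest in P8 Cd73PC at 104 and 17.6. The replacement H3 genes H3f3a and H3f3b ranged from 532 to 863 and from 444 to 1526 FPKM, each above the sum of the 12 clustered H3 genes in every library, which was 18.9 to 159 FPKM. Of the 9 replacement genes 5 were lower and 1, H3f3b, was higher in Cd73PC at P2, 3 were lower and 0 higher at P5, and 2 were lower and 2 higher at P8.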

How the data were processed

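The authors selected poly(A) RNA on oligo-dT beads, sequenced 36-base single-end reads from an unstranded kit, aligned them with TopHat 2.0.8b to NCBI37/mm9 with RefSeq genes, allowing up to 50 placements per read, and deposited FPKM values per gene from Cufflinks 2.1.1. Here 787 small RNA rows were left out and rows of a shared symbol were summed, leaving 21828 genes, and differences were taken as log2 of FPKM + 1 with Python 3.11.15, numpy 2.4.6 and pandas 2.3.3. Each library held 4 to 10 failed rows, none of them a member. Each condition had 1 library, so folds were counted without a test, and the fractions were tested over the 3 ages with limma 3.58.1 in R 4.3.3, age as a block, on 13057 genes with at least 1 FPKM in any sorted library, with Benjamini-Hochberg adjustment. The deposited confidence bounds were not used, because the FPKM of 13 to 42 of the 67 member rows in a library lay above its own upper bound. Read depth was not in the files. Sequences and windows were read from NCBIM37, and promoters from RefSeq on GRCm38.p6. The counting of folds and the limma fit were tested on simulated data. The members, gene lists and the rule for named genes were chosen with earlier results of these data known. The rule named the 12 members of highest mean, up to 6 members higher in Cd73PC at any age, up to 6 past the fold in 1 direction at all 3 ages, up to 3 genes of highest mean per other list, and Slbp, and other named genes were chosen after their values were seen. Alternatives changed the pseudocount, the fold, the scaling, the low-value filter, the handling of shared symbols and the summary. Some items of the cell type lists are not reported here.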

Additional observations from a re-analysis of the deposited data

Results flagged for a closer look

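In 9 pairs of comparisons a sum over a cluster and histone type moved in opposite directions, by a difference of at least 1 on the log2 scale of summed FPKM + 1. With 1 library per condition none of these differences was tested. The comparisons against E18 share the E18 library, and 1 library can set the sign of both. The other comparisons set against each other share no library, and each rests on single libraries.

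Between the fractions, the Hist1 H3, H4 and H2B sums were lower in Cd73PC at P2 and higher at P8. For H3 the log2 ratios were -1.71 and 0.64, a difference of -2.351, for H4 -1.37 and 0.29, a difference of -1.659, and for H2B -1.28 and 0.16, a difference of -1.433. Hist2h4, the single H4 gene of Hist2, had -1.17 and 0.25, a difference of -1.417. Against E18, Hist1 H3 was at 1.38 in P2 Cd73NC and -0.32 in P2 Cd73PC, a difference of 1.708, with the latter turning to 0.11 under quantile scaling. Hist1 H2B was at 0.81 and -0.47, a difference of 1.276. Hist2h4 was at 0.97 and -0.20, a difference of 1.171, with the latter turning to 0.29 under quantile scaling. From P2 to P5 Hist2h4 was at -1.74 in Cd73NC and 0.08 in Cd73PC, a difference of -1.825. From P5 to P8 the Hist3 H2B sum was at 1.09 in Cd73NC and -0.39 in Cd73PC, a difference of 1.484.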

How the results depend on the processing

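Of 140 values recomputed under another setting, 123 kept within 1.5 times the count or close to the ratio and 17 moved. The restriction to 18 members with at least 50% of windows placed once, the summing of the 3 overlapping pairs and the removal of the 3 Hist3 members were chosen after seeing the data. With those 18 members the lower and higher counts in Cd73PC were 8 and 2 at P2 and 3 and 3 at P5, 3 were higher at P8, and the log2 ratio of the summed family was -0.60 at P5 in place of 0.08, -1.70 at P8 in place of -0.52, and -0.33 from P2 to P5 Cd73NC in place of -1.15. The fall in these counts goes with fewer genes counted. At 2-fold, 2, 2 and 6 members were higher at P2, P5 and P8. Quantile scaling gave 11 higher at P5 and 23 at P8, against 6 and 12, and the cause was not tested. A pseudocount of 0.1 gave 6 lower at P8 in place of 3. Without the 3 Hist3 members the summed ratio was 0.64 at P8 in place of -0.52, and -0.34 from P5 to P8 Cd73NC in place of 0.42, and the median over members gave -0.20 for the latter, so the sign of these 2 family sums is set by Hist3. No analysis paired by replicate was possible within an age, because each group holds replicate number 1 alone, and no library could be left out within a group. The fit with age as a block pairs the Cd73PC and Cd73NC libraries of each age. It was also added after seeing the data, and called 4 members higher and 1 lower, all of them Hist2 or Hist3 genes. Short reads, shared windows and the poly(A) selection limit what single members show, and depth behind low values is unknown.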

Other observations

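Histone chaperones, which carry new histones to DNA, were read in a list of 12 genes. At P2, 7 of the 12 were at least 1.5-fold lower in Cd73PC and 0 higher, at P5 1 was lower and 0 higher, and at P8 6 were lower and 1, Hat1, was higher. Of all genes, 14.4%, 15.5% and 18.6% were lower at these ages, and 8.56%, 7.02% and 7.54% higher. The 3 with the highest mean were Rbbp4, Rbbp7 and Nasp. Nasp, which binds H3 and H4, had 114 FPKM in P2 Cd73NC, 53.1 in P2 Cd73PC and 16.1 in P8 Cd73PC. Rbbp7 had 78.1, 66.6 and 39.8 FPKM in these libraries and did not reach the fold between fractions at any age, and Rbbp4 had 142, 94.5 and 59.3 FPKM, with log2 ratios of -0.58 at P2 and -0.65 at P8.

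Other cell type lists gave the following counts between the fractions. Of 4 ganglion cell genes 1 was higher and 1 lower in Cd73PC at P2, and 0 passed at P5 or P8. Of 3 cone genes 1 was higher at P2 and 1 at P8. Of 3 endothelial genes 1 was lower at P2 and 1 higher at P5. Of 3 microglia genes 3 were higher at P2, 1 was lower at P5 and 1 was lower at P8. Of the 2 amacrine genes measured 1 was higher at each age and 1 was lower at P2.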
